A study of Mus musculus with 26 samples.

Results

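Gene clusters with many annotated isoforms were examined in mouse liver, and the share that each isoform takes of its cluster was followed from total RNA into RNA recovered with hnRNPK. A cluster is a numbered group of transcripts in the deposited tables, usually the transcripts of 1 gene. Members were selected on transcript number and total RNA counts: 10 or more transcripts and at least 1000 estimated counts summed over the 12 total RNA libraries. Of 31469 clusters, 155 had 10 or more transcripts, 95 of these passed the count minimum, and 93 remained after 2 were left out by their cluster number, as the selection asks. The maximum of 1500 CPM (counts scaled to library size) in wild-type total RNA removed none, since the highest member reached 1156 CPM. The least counted member had 1118 counts and the most counted cluster below the minimum had 959. These totals chose the members and are given as description only. Isoform shares played no part in the choice.

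Livers came from 3 groups of mice: C57BL/6J on normal diet (wild type), B6.V-Lepob/J on normal diet (ob/ob, a strain that lacks leptin and becomes obese), and C57BL/6J on high-fat diet. Each group gave total RNA, RNA immunoprecipitated (IP) with an hnRNPK antibody from a cytoplasmic extract, and the same from a nuclear extract. Each combination had 2 units, and each total RNA unit was the sum of 2 libraries that share a replicate number. Control IgG precipitations were sequenced once per compartment, with strain and diet labelled as mixed. Whether replicates came from separate animals is not stated in the labels, and p-values therefore reflect the spread among these samples alone, part of which may be technical. Total RNA was not the input of either extract, and a difference between IP and total RNA therefore includes the fractionation.

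Isoforms of a gene arise from alternative promoters, alternative splicing and alternative polyadenylation, so they often share most of their sequence. hnRNPK is a nucleic acid binding protein with KH domains that prefers cytosine-rich stretches, shuttles between nucleus and cytoplasm, and acts in splicing, RNA stability and translation. Short sequencing reads that fall in shared exons do not identify an isoform. RSEM, a program named in the submitters' processing notes, divides such reads among isoforms by estimation, which makes every share below an estimate.

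The 93 members held 1155 of the 59121 transcripts. They had 10 to 44 isoforms (median 11), with exactly 10 in 36 members and 20 or more in 5. Their total RNA counts ran from 1118 to 490018 with a median of 9572. Total RNA libraries had 0.479 to 0.605% of all their counts on members, cytoplasmic IP libraries 0.207 to 0.297%, nuclear IP libraries 0.210 to 0.370%, and the IgG libraries 0.367% (cytoplasmic) and 0.485% (nuclear). Library totals were 25597307 to 41731910 in total RNA, 5336060 to 12068891 in IP, 3116786 in nuclear IgG and 338469 in cytoplasmic IgG. Cytoplasmic IgG thus held only 1241 counts over all members. Among the isoforms, 154 had no count in any of the 18 IP and total RNA units, and 326 had counts in total RNA but none in the 12 IP units, whose counts per member were lower. The deposited identifiers are not paired with gene symbols or sequences here, so clusters are named by number and isoforms by transcript identifier.

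Isoform shares separated total RNA from the immunoprecipitates in most members. The difference between the profiles of a cluster in 2 units was measured as the percent of its counts that is assigned to other isoforms. Over members its median was 57.9 to 77.8% between cytoplasmic IP and total RNA units and 72.5 to 83.4% between nuclear IP and total RNA units. Total RNA units of the same mouse group differed by 10.5 to 10.7%, and units of different mouse groups by 9.41 to 15.5%. Single libraries of 1 total RNA unit differed by 10.5 to 16.4%, a range that covers most of that between mouse groups, although single libraries are shallower. Cytoplasmic and nuclear IP differed by 10.8 to 28.7%, against 13.0 to 19.5% within cytoplasmic and 8.08 to 12.2% within nuclear IP of a mouse group.

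The nuclear IgG library resembled the immunoprecipitates. It differed from total RNA by 79.2 to 85.3%, but from nuclear IP by 9.73 to 15.8% and from cytoplasmic IP by 13.0 to 25.5%. Cytoplasmic IgG could be compared in only 5 members with 50 or more counts. There it differed from total RNA by 25.7 to 43.4% and from cytoplasmic IP by 25.8 to 47.0%. In clusters with 2 to 9 isoforms values were lower, with 29.6 to 43.6% between cytoplasmic IP and total RNA. Nuclear IP there differed by 41.9 to 51.5% from total RNA and by 1.95 to 2.94% from nuclear IgG. Cytoplasmic IgG differed in these clusters by 11.4 to 12.6% from total RNA but by only 3.21 to 4.88% from cytoplasmic IP. That separation was not seen in the 5 members.

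**Figure D1:**
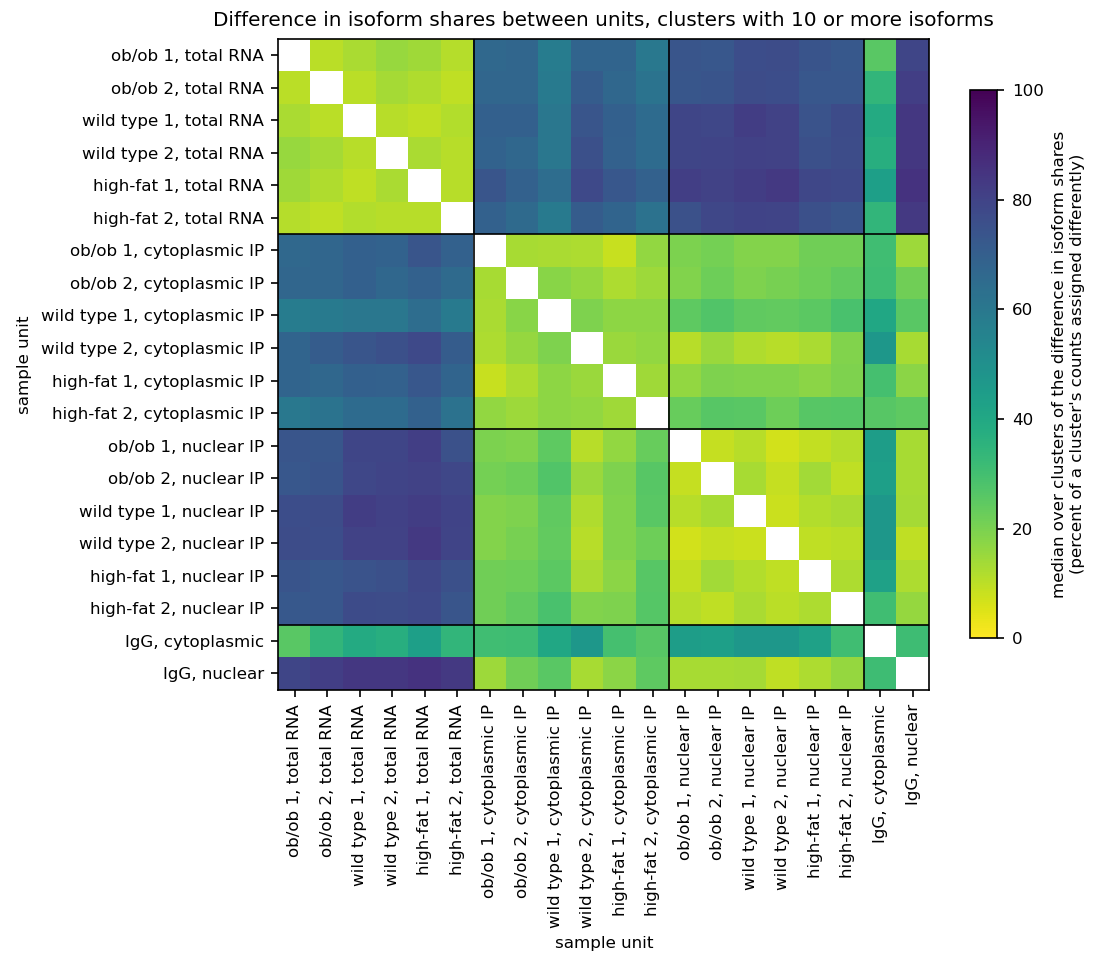
Median difference in isoform shares (percent of a cluster's counts assigned to different isoforms, colour scale) for every pair of the 18 units and 2 IgG libraries, over members with 50 or more counts in both. The total RNA units form a block with differences of 9.41 to 15.5% between mouse groups, the IP units and nuclear IgG form another, and the 2 blocks lie 57.9 to 85.3% apart.

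Isoform use was tested with edgeR's diffSpliceDGE, whose F test asks whether the isoforms of a cluster have unequal fold changes. Between cytoplasmic IP and total RNA, 85 of 91 members tested passed an adjusted p of 0.05 (93.4%), and so did 87.3% of all 6499 clusters tested. Between nuclear IP and total RNA, 85 of 91 members passed (93.4%), and 91.6% of all clusters did. Nuclear and cytoplasmic IP differed in 24 of 91 members (26.4%), close to the 24.7% of all clusters, and in 15 members without the first wild-type unit of cytoplasmic IP. Only 499 of the 1155 isoforms passed the filter on low counts in this fit, with 2 to 11 per member. The members' shares of calls lie near those of all clusters.

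Counts were concentrated on fewer isoforms in the immunoprecipitates. Over the 44 members with 50 or more counts in all 18 units, the median share of the largest isoform was 46.8% ± 2.39 in total RNA, 75.3% ± 6.87 in cytoplasmic IP and 85.6% ± 2.87 in nuclear IP (mean ± SD, n = 6 units each). Total RNA units ranged from 43.3 to 49.3%, those of cytoplasmic IP from 66.9 to 86.4% and those of nuclear IP from 82.3 to 89.3%. Total RNA overlapped with neither IP, while the IP ranges overlapped each other. The effective number of isoforms, which counts isoforms weighted by their shares, was 2.90 ± 0.097, 1.63 ± 0.193 and 1.34 ± 0.080 in the same order.

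Depth moved with this result. The median member had 2834 to 4202 counts per total RNA unit, 263 to 415 per cytoplasmic IP unit and 168 to 601 per nuclear IP unit, and the part of depth in the result was not tested. With 200 or more counts in all units, 17 members remained, and their largest isoform took 44.0% in total RNA, 69.2% in cytoplasmic IP and 80.9% in nuclear IP. Shares per length, from TPM, gave 46.9, 80.6 and 89.7% over the 44 members. In 3345 clusters with 2 to 9 isoforms the largest isoform took 90.2% in total RNA, 95.5% in cytoplasmic IP and 98.3% in nuclear IP.

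**Figure D2:**
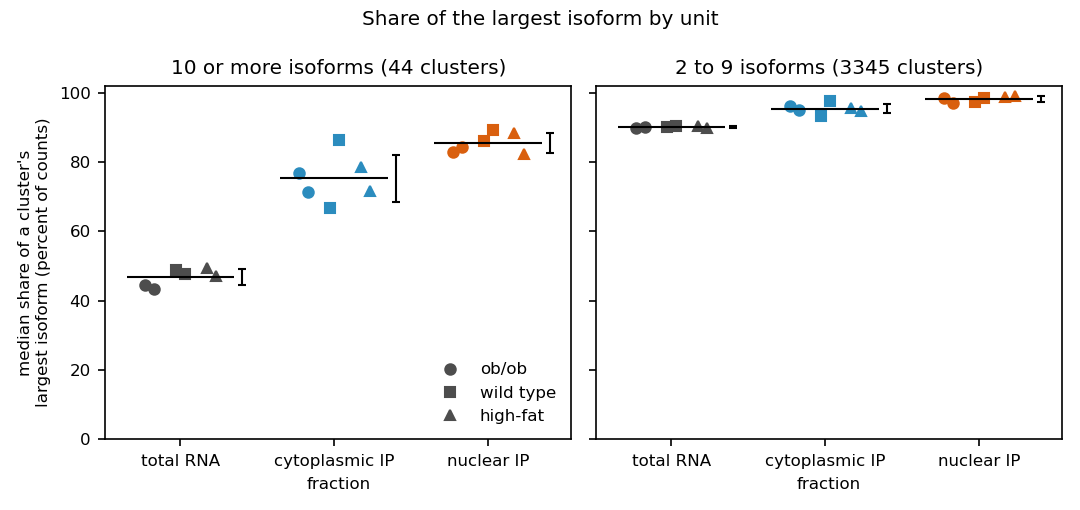
Median share of the largest isoform (percent of the cluster's counts, vertical axis) in each unit of total RNA, cytoplasmic IP and nuclear IP, for 44 members (left) and 3345 clusters with 2 to 9 isoforms (right). Points are units by mouse group, lines are means of 6 units and bars are 1 SD, and in the members every IP unit lies above all total RNA units.

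The largest isoform itself changed in many members. A switch was counted where all units of a side had the same largest isoform, the sides differed in it, and every unit had 50 or more counts of the cluster. Between cytoplasmic IP and total RNA 20 of 52 members switched (38.5%, against 29.6% of all clusters with 2 or more isoforms). Between nuclear IP and total RNA 19 of 50 switched (38%, against 35.2%). Between the 2 IPs none of 44 members switched, and 1.3% of all clusters did. Of the switched members, 14 were the same in both IPs, which is 70.0% of the cytoplasmic and 73.7% of the nuclear list. All 14 had switched to the same isoform in both. The matching shares over all clusters were not computed, so this overlap cannot be read as particular to members. Per length, from TPM, 20 and 17 members switched. Both comparisons use the same total RNA units.

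All of these switches went to a shorter isoform. The isoform largest in IP was shorter than that largest in total RNA in 20 of 20 members for cytoplasmic IP and in 19 of 19 for nuclear IP. Its length was 0.712 of the total RNA isoform's in the median for cytoplasmic IP (range 0.161 to 0.998) and 0.691 for nuclear IP (range 0.106 to 0.973), with 6 members in each within 10% of equal length. It was the shortest isoform of its cluster in 2 and 1 members. Over all clusters with 2 or more isoforms, 1412 and 1256 switched and the IP isoform was the shorter in 97.7 and 97.6% of them. There it was the shortest of its cluster in 853 and 767. The deposited isoform length was not used to choose members or switches.

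Mean length was compared over all members with 50 or more counts in every unit, those that switched included. The share-weighted mean length (geometric) was lower in cytoplasmic IP than in total RNA in 40 of 52 members (76.9%, against 72.1% of all clusters). In 33 of these 52 the units did not overlap, with IP lower, and in 4 with IP higher (63.5 and 7.69%, against 53.8 and 14.4% of all clusters). For nuclear IP the mean length was lower in 38 of 50 members (76.0%, against 73.0%), with 32 lower and 4 higher without overlap (64.0 and 8.0%, against 57.5 and 15.6%). Nuclear IgG carried the IP isoform rather than the total RNA isoform in every switched member where it had 50 or more counts, which were 17 of 17 for cytoplasmic IP and 19 of 19 for nuclear IP. Cytoplasmic IgG had 50 counts in 2 switched members and matched the IP isoform in 1. The match with IgG was not counted over all switched clusters, so it cannot be read as particular to members.

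**Figure D3:**
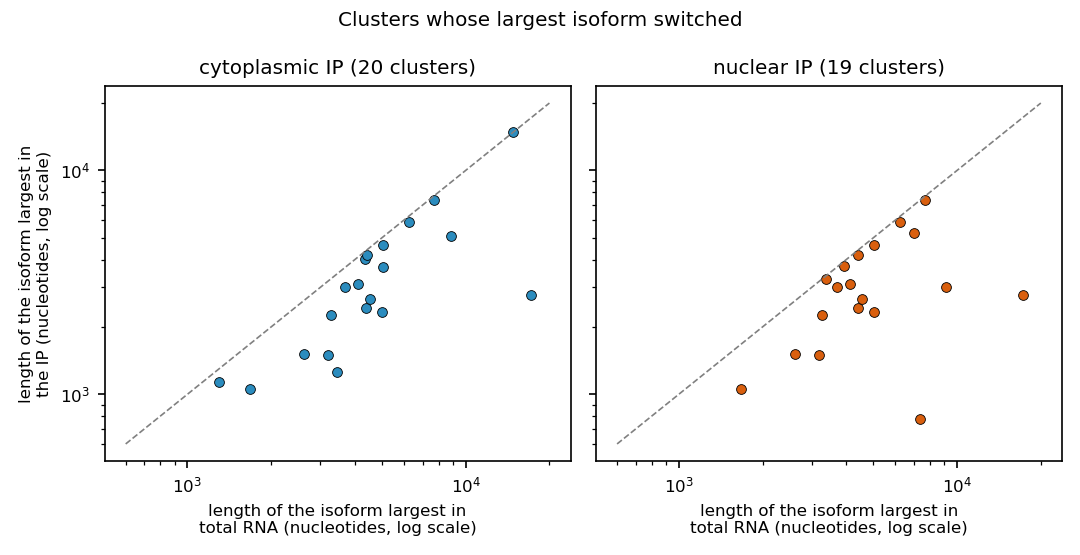
Length in nucleotides of the isoform largest in IP (vertical, log scale) against that of the isoform largest in total RNA (horizontal, log scale) for the 20 members that switched in cytoplasmic IP and the 19 in nuclear IP. Each point is a cluster and the dashed line marks equal length, and all points lie below it.

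Of the 85 members called in nuclear IP, 48 had 50 or more counts in every unit compared and an isoform whose shares did not overlap. Among these 48 the largest gain of an isoform was in cluster 19956, which has 10 isoforms. Its isoform uc012dnm.2, of 2336 nucleotides, took 0.0 to 3.37% of the cluster in the 6 total RNA units (median 0.196%), and 93.9 to 96.4% in the nuclear IP units (median 95.2%). The isoform uc008vkd.2, of 5010 nucleotides, took 53.2 to 62.0% in total RNA (median 58.0%) and 0.698 to 4.35% in nuclear IP (median 2.53%). The groups lie far apart for both isoforms, and isoform use differed with an adjusted p of 2.49e-18 (edgeR diffSpliceDGE, Benjamini-Hochberg). Cytoplasmic IP gave 83.5 to 93.1% of uc012dnm.2, and nuclear IgG 94.3% of 587 counts (95% Wilson interval 92.2 to 96.0%, counting error only). The level of the whole cluster was 2.1 ± 0.095 (SE) higher on the log2 scale in nuclear IP than in total RNA.

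Cluster 29617, also with 10 isoforms, went from a very long to a shorter transcript. Isoform uc009qxj.2, of 9124 nucleotides, took 59.8 to 84.1% in total RNA (median 78.1%) and 0.0 to 4.35% in nuclear IP. Isoform uc012gxp.1, of 3014 nucleotides, went from 0.0 to 1.81% in total RNA to 84.2 to 100.0% in nuclear IP (mean 93.9% ± 5.34, SD, n = 6). Isoform use differed with an adjusted p of 1.76e-09 by edgeR. The cluster had 58.5 to 120 counts per nuclear IP unit, and nuclear IgG gave uc012gxp.1 96.1% of 51 counts (86.8 to 98.9%). Its summed level in nuclear IP was not detectably different from total RNA (log2 difference -0.14 ± 0.182, adjusted p = 0.498 by edgeR). Cytoplasmic IP was less uniform, with uc012gxp.1 between 0.0 and 90.4% on 26.0 to 64.8 counts.

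In cytoplasmic IP 50 of the 85 called members met the same conditions, and the largest gain among them was in cluster 9474. This cluster has 18 isoforms of 306 to 15455 nucleotides. Isoform uc007wit.2, of 14829 nucleotides, took 0.0 to 4.19% in total RNA (median 0.786%) and 89.97 to 100.0% in cytoplasmic IP. Isoform uc007wja.2, of 14856 nucleotides, took 76.8 to 86.1% in total RNA and 0.0 to 0.01% in cytoplasmic IP. Isoform use differed with an adjusted p of 5.5e-05 by edgeR. Cytoplasmic IgG gave uc007wit.2 99.0% of 36 counts (90.4 to 100.0%), and nuclear IgG gave it 100.0% of 111 counts (96.7 to 100.0%). The nuclear IP units disagreed among themselves, with uc007wit.2 at 100.0 and 74.6% in ob/ob, 11.4 and 100.0% in wild type, and 0.0 and 100.0% in high-fat mice. In the high-fat unit at 0.0% all counts of the cluster were assigned to uc007wja.2. Units of the same group and fraction thus had all counts of this cluster on different isoforms.

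Cluster 20683 behaved almost as a pair of isoforms. Isoform uc008wzf.1, of 1299 nucleotides, took 99.8 to 100.0% in total RNA, and uc008wzg.1, of 1129 nucleotides, had no count in any of the 6 total RNA units. In cytoplasmic IP uc008wzg.1 took 86.4 to 99.4% (median 98.7%) and uc008wzf.1 0.0 to 12.6%, on 109 to 351 counts. The adjusted p was 5.29e-08 by edgeR. Nuclear IP held only 2 to 12 counts of this cluster per unit, with a log2 difference from total RNA of -3.96 ± 0.174, and its shares there are too thin to read. Cytoplasmic IgG had no count of it among 338469 counts in all.

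Between the 2 immunoprecipitates 9 of the 24 called members met the same conditions. The largest difference among them was in cluster 28186, with 11 isoforms. Its short isoform uc029wwu.1, of 530 nucleotides, had no count in total RNA, took 29.0 to 42.3% in cytoplasmic IP (median 30.7%) and 73.1 to 82.8% in nuclear IP (median 79.8%). Isoform uc009nvr.1, of 1236 nucleotides, went the other way, with a mean of 19.9% ± 1.99 in cytoplasmic IP and 3.39% ± 1.31 in nuclear IP (SD, n = 6 units each), on ranges of 17.48 to 23.2% and 1.86 to 5.16%. Neither isoform overlapped between the compartments, which naming required of at least 1 isoform. The adjusted p was 5.84e-13 by edgeR. In total RNA the cluster was carried by isoforms of 5105 and 2809 nucleotides, at 41.0 to 43.2% and 35.9 to 41.5%. Nuclear IgG gave uc029wwu.1 84.0% of 294 counts (79.4 to 87.8%) and uc009nvr.1 3.83% (2.1 to 6.57%). Cytoplasmic IgG, on only 45 counts, gave them 20.4% (10.9 to 33.8%) and 38.3% (25.1 to 52.4%). The IgG libraries thus differed in the same direction as the IPs for both isoforms. The level of the cluster in nuclear minus cytoplasmic IP was -1.04 ± 0.075 on the log2 scale.

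Cluster 27287, with 11 isoforms, was less even. Isoform uc012gdg.2, of 4185 nucleotides, took 1.87 to 8.53% in total RNA. It reached 47.0 to 71.9% in cytoplasmic IP, and in nuclear IP its range was 74.2 to 94.1%. Isoform uc009lpj.2, of 4403 nucleotides, took 48.3 to 54.7%, 14.2 to 41.6% and 0.0 to 11.6% in total RNA, cytoplasmic IP and nuclear IP. The 2 IPs did not overlap for either isoform, with an adjusted p of 0.00204 by edgeR. Without the second ob/ob unit of cytoplasmic IP the adjusted p was 0.24. All 372 counts in nuclear IgG were assigned to uc012gdg.2 (99.0 to 100.0%).

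**Figure D4:**
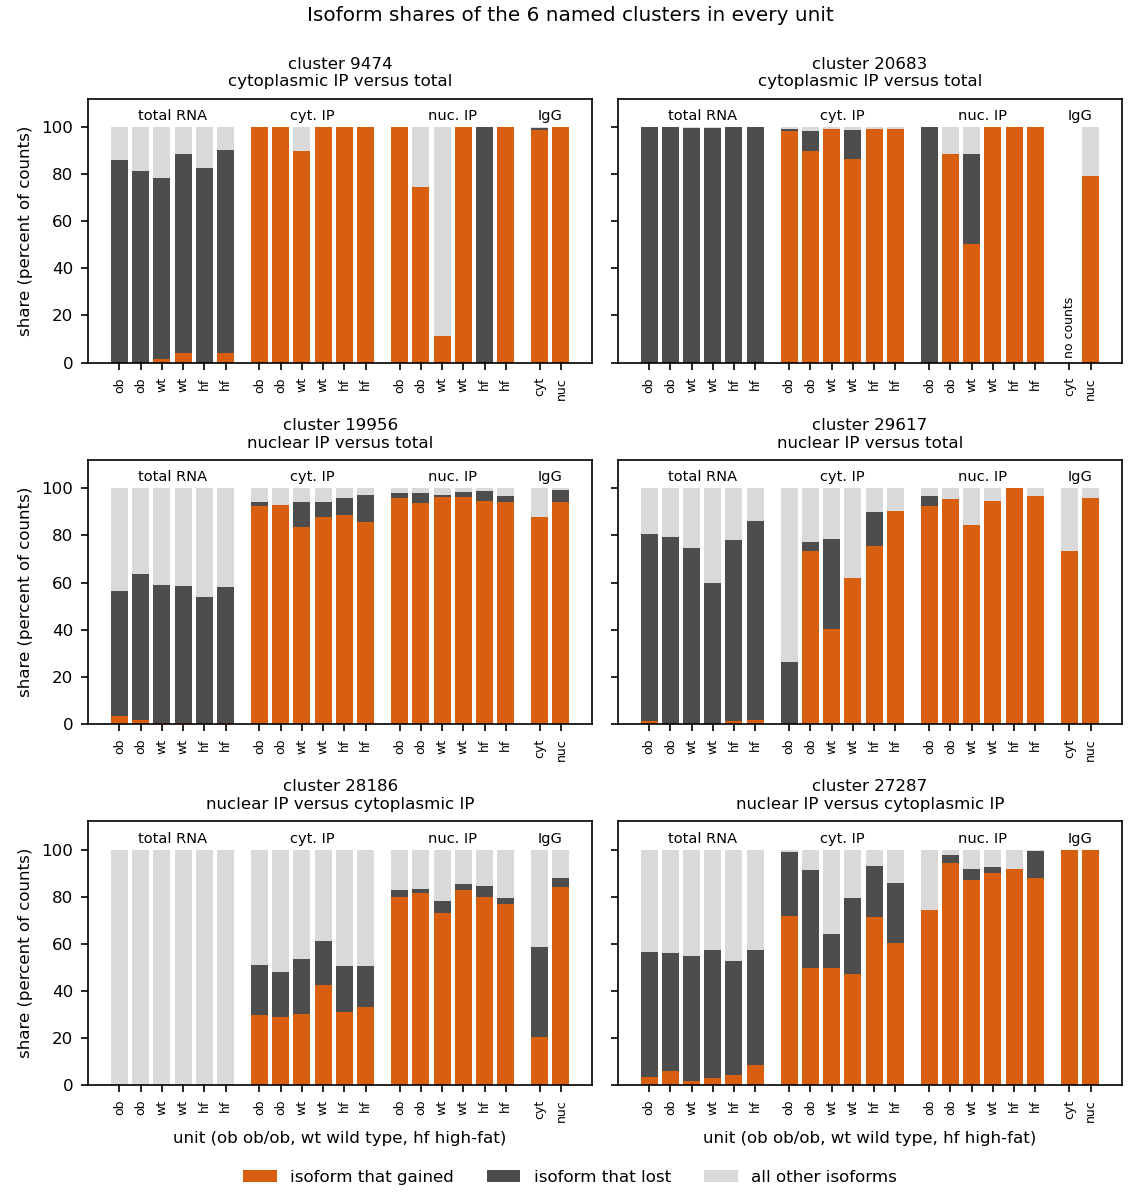
Share of each cluster's counts (percent, vertical axis) taken by the isoform that gained most, the isoform that lost most and all others, in the 18 units and 2 IgG libraries, for the 6 clusters named between fractions. Total RNA bars differ from cytoplasmic IP bars for the isoforms named in that comparison, while 1 nuclear IP bar each of clusters 9474 and 20683 has 100.0% on the main total RNA isoform, and the nuclear IP bars of cluster 20683 rest on 2 to 12 counts each.

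The member with the most isoforms and 1 of the 2 most counted members showed the same contrast. Cluster 12912, with 44 isoforms, had 46.0 to 58.9% of its total RNA counts on an isoform of 4686 nucleotides and 0.0 to 8.14% on one of 2424 nucleotides. In cytoplasmic IP the shorter isoform took 65.8 to 100.0% and in nuclear IP 82.7 to 100.0%, on 18 to 97 counts per IP unit. Nuclear IgG gave it 92.4% of 54 counts (82.4 to 97.1%). Cluster 443, with 65444 to 95245 counts per total RNA unit, divided them mainly among isoforms of 7694 nucleotides (39.1 to 44.2%) and 7409 nucleotides (28.4 to 35.8%). The isoform of 7409 nucleotides took 67.6 to 86.0% in cytoplasmic IP, 89.2 to 99.7% in nuclear IP and 90.4% of 879 counts in nuclear IgG. Cytoplasmic IgG gave it 52.7% of 92 counts (42.1 to 62.1%), below every cytoplasmic IP unit. The IP units of cluster 443 held 608 to 1749 counts. Cluster 665, with 70490 to 94132 counts per total RNA unit, showed no such separation of its main isoform. Its main isoform uc007byk.1 took 32.8 to 51.1% in total RNA, which overlaps with its 23.4 to 68.4% in cytoplasmic IP. Its nuclear IP range, 24.7 to 55.7%, overlaps too.

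Members were more often lower than higher in the immunoprecipitates as whole clusters. Summed over isoforms, 22 of 93 were higher and 53 lower in cytoplasmic IP than in total RNA (edgeR quasi-likelihood test, adjusted p under 0.05), where 35.9% of all 13516 clusters were higher and 41.2% lower. In nuclear IP 23 were higher and 49 lower, where 32.1% of all clusters were higher and 42.4% lower. The median log2 difference of the members was -0.51 in cytoplasmic and -0.41 in nuclear IP, beside -0.11 and -0.18 over all clusters. Between nuclear and cytoplasmic IP, 45 were higher and 25 lower, where 30.9% of all were higher and 33.5% lower, with medians of 0.28 and -0.04. Scaled by library size alone, the counts were 16 higher and 64 lower, 15 and 61, and 46 and 21, with all-cluster medians of -0.62, -0.54 and 0.11. These level differences include recovery in the IP and the fractionation, and their cause was not tested.

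Few members were called between mouse groups. In total RNA 2 of 92 members passed between ob/ob and wild type (1.76% of all 7741 clusters did), and 1 of 92 between high-fat and wild type (0.336%). In cytoplasmic IP edgeR called 0 of 91 members between ob/ob and wild type (3.57% of all clusters). Between high-fat and wild type it called 0 of 91 (2.63%). An unadjusted p under 0.05 was reached by 12 and 14 of the 91 members, beside 1456 and 1352 of all 6499 clusters. Testing with limma voom called 1 and 3 members in cytoplasmic IP at the adjusted threshold. In nuclear IP 1 of 91 members passed between ob/ob and wild type (3.59%) and 3 between high-fat and wild type (3.52%). These comparisons share the wild-type units.

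Cluster 14285, with 10 isoforms, was called in nuclear IP for both ob/ob and high-fat mice against wild type. Isoform uc008hzs.2, of 6244 nucleotides, took 0.0 and 0.0% in the 2 wild-type units, 15.1 and 11.99% in ob/ob, and 25.6 and 43.0% in high-fat mice. Isoform uc009vbz.1, of 5910 nucleotides, took 97.4 and 99.0%, 82.4 and 87.5%, and 74.4 and 55.3% in the same order. No group overlapped with wild type, but the naming of clusters required this of at least 1 isoform. The adjusted p was 0.0189 for ob/ob and 0.00532 for high-fat mice by edgeR, and 0.0641 and 0.017 by limma voom. Leaving out either wild-type unit raised both above the threshold, to 0.127 or 0.0901 for ob/ob and to 0.0592 or 0.0625 for high-fat mice.

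The same cluster was not called by edgeR between the mouse groups elsewhere. In cytoplasmic IP uc008hzs.2 took 38.2 and 0.0% in wild type, 44.5 and 29.2% in ob/ob, and 31.3 and 29.1% in high-fat mice, so the wild-type units spanned nearly the whole range. In total RNA uc008hzs.2 was the main isoform in all 6 units. It took 88.25 and 89.5% in wild type, 92.3 and 81.9% in ob/ob, and 87.2 and 84.8% in high-fat mice. The high-fat units there lay below wild type, opposite to nuclear IP, while the single libraries of these groups overlapped. Nuclear IgG had 110 counts, all on uc009vbz.1 (96.6 to 100.0%). The nuclear IP units held 74.5 to 315 counts of the cluster.

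The remaining nuclear IP calls of high-fat against wild type were smaller or lost with a single unit. In cluster 15065 isoform uc008kak.2, of 2518 nucleotides, took 51.7 and 53.2% in wild type and 40.7 and 44.2% in high-fat mice, while uc008kaj.2, of 1184 nucleotides, took 0.335 and 0.0% against 10.8 and 3.54%. The adjusted p was 0.0179 by the F test and 0.102 by Simes' test over isoforms in edgeR, and 0.25 to 1.0 when any single unit of the groups compared was left out. Cluster 19063 was named after its values were seen, as the only other call. Its isoform of 1154 nucleotides took 95.4 and 97.8% in wild type and 55.6 and 82.4% in high-fat mice. Nuclear IgG gave this isoform 67.0% of 66 counts (54.7 to 76.8%). The cluster held 280 and 509 counts in the wild-type units of nuclear IP. It held only 40 and 33 in the high-fat units, below the minimum used where members are counted. Its adjusted p was 0.0194 by edgeR and 0.157 to 0.315 with a unit left out.

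In total RNA, cluster 2124 with 21 isoforms was called between ob/ob and wild type. Isoform uc007fnk.1, of 7554 nucleotides, took 13.7 and 7.11% in ob/ob and no count in the wild-type and high-fat units of total RNA. The single ob/ob libraries gave 0.0 and 22.5% for the first unit and 9.88 and 4.59% for the second, so the libraries of the first unit differed by more than the units did. Isoform uc007fni.1, of 4097 nucleotides, took 29.0 and 34.3% in ob/ob and 38.8 and 41.4% in wild type. The adjusted p was 0.0359 by edgeR and 0.638 by limma voom, 0.94 with each library as its own replicate, and 0.0712 to 0.156 with a unit left out.

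Cluster 8161, with 22 isoforms, was the other ob/ob call in total RNA. Isoform uc007tin.1, of 3572 nucleotides, took 25.5 and 24.3% in ob/ob and 30.3 and 28.1% in wild type. Isoform uc007til.1, of 4443 nucleotides, took 31.7 and 26.0% against 21.6 and 29.5%, which overlap. The adjusted p was 0.0354 by edgeR, 0.0707 by Simes' test and 0.696 by limma voom, and 0.0275 to 0.492 with a unit left out. The call passed without the second ob/ob unit and failed without any of the other 3.

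Cluster 665, the most counted member, was the call between high-fat and wild type in total RNA. Isoform uc007byh.1, of 3208 nucleotides, took 6.21 and 9.87% in high-fat mice, 15.4 and 38.7% in wild type, and 17.6 and 14.2% in ob/ob. Isoform uc007byk.1, of 3229 nucleotides, took 49.3 and 50.3% in high-fat mice and 44.8 and 32.8% in wild type. The second wild-type unit stood apart, and its libraries gave 38.5 and 38.9% of uc007byh.1. The adjusted p was 0.0341 by edgeR, 0.332 by limma voom, and 0.000246 to 0.683 with a unit left out, with 0.185 without that wild-type unit. It passed only when the first wild-type unit was the one left out.

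**Figure D5:**
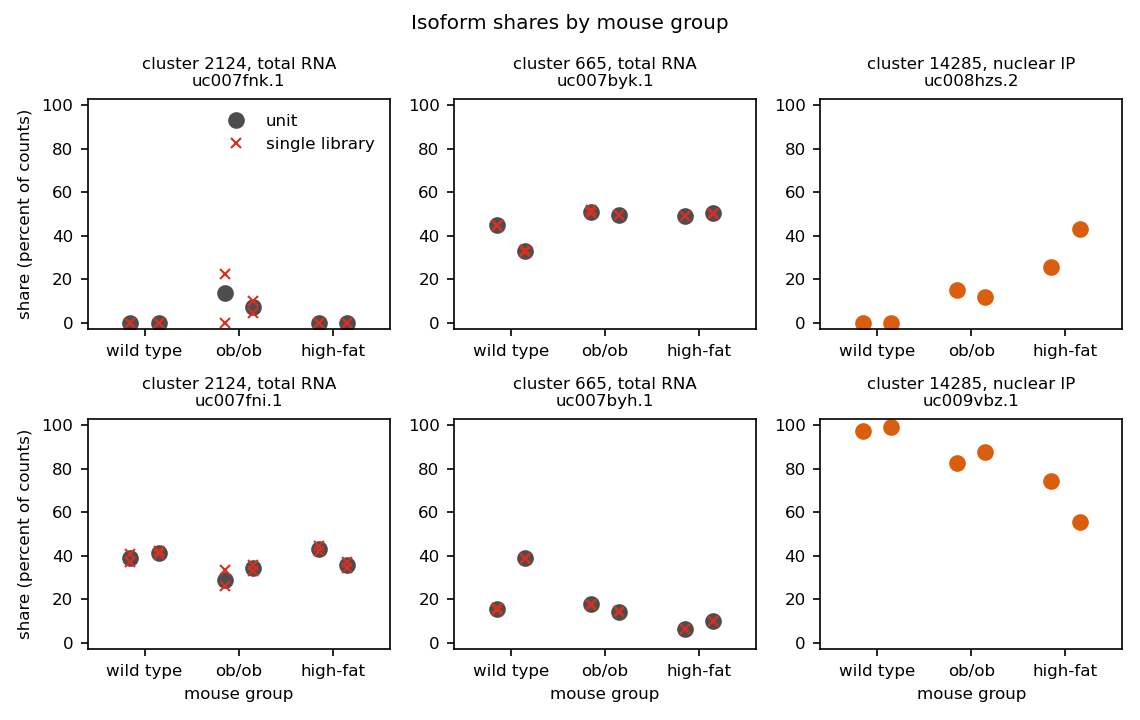
Share of the cluster's counts (percent, vertical axis) of both named isoforms of clusters 2124 and 665 in total RNA and 14285 in nuclear IP, by mouse group. Filled points are units and crosses are the single libraries of total RNA, which span 0.0 to 22.5% in the first ob/ob unit of uc007fnk.1.

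Switches of the largest isoform between mouse groups were few in members and in all clusters. There were 2 of 92 between ob/ob and wild type in total RNA (1.63% of all clusters), 1 of 92 between high-fat and wild type (0.745%), 1 of 58 and 1 of 53 in cytoplasmic IP (1.3 and 0.953%), and 2 of 53 and 1 of 51 in nuclear IP (1.24 and 1.08%). In nuclear IP 1 of the ob/ob switches, cluster 5689, rested on isoforms of equal length with equal shares in both ob/ob units (37.7 and 30.0%), that is on a tie. The largest shift in total RNA was in cluster 19063, chosen here after its values were seen. Its isoform of 1510 nucleotides was the largest in wild type with 58.8 and 79.1% and took 21.7 and 16.2% in ob/ob, where an isoform of 4000 nucleotides led with 44.2 and 40.0%. Its isoform use did not pass between these groups (adjusted p = 0.0743 by edgeR). The level of that cluster differed too, from 15.6 and 29.4 CPM in wild type to 6.39 and 7.14 CPM in ob/ob and 8.53 and 8.15 CPM in high-fat mice. Fewer molecules per cell and fewer cells of a type cannot be told apart in such bulk samples.

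Units of the same group disagreed on the largest isoform more often than mouse groups switched. Among members with 50 or more counts in both units of a group, the largest isoform differed between the 2 units in 19 of 92 for wild-type total RNA (20.7%), 18 of 93 for ob/ob (19.4%) and 13 of 93 for high-fat mice (14%). In cytoplasmic IP it differed in 23.3, 13.4 and 14.5% of members in the same order, and in nuclear IP in 7.46, 5.66 and 23.5%. Over all clusters with 2 or more isoforms, disagreement was seen in 5.12 to 6.32% for total RNA, 7.83 to 11.6% for cytoplasmic IP and 6.66 to 9.08% for nuclear IP. In total RNA the members' shares were above those of all clusters in each mouse group, a description without a test. A switch needs agreement within both groups, so the 2 kinds of share are not on the same scale.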

How the data were processed

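RNA from mouse liver was sequenced in 26 libraries. Per the labels' protocols, a TruSeq RNA kit was used. The authors deposited tables of estimated counts and TPM per transcript. The submitters' processing notes name RSEM 1.2.8, TopHat2 2.0.10, Bowtie2 2.1.0 and build mm10, with no role or order. The sources used here do not give strandedness. Deposited TPM, which keep no depth, were used only for shares per length.

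Where total RNA libraries shared a replicate number their estimated counts were added up, giving 18 units, and rounded to whole numbers for tests. The labels do not say that such libraries are runs of the same RNA. Isoform use was tested with diffSpliceDGE on quasi-likelihood fits of edgeR 4.0.16 (R 4.3.3, TMM, filterByExpr, Benjamini-Hochberg over all clusters tested, threshold 0.05), and levels with edgeR's quasi-likelihood test on counts summed per cluster. IP comparisons used a fit to all 18 units that has 1 mean for each group, and total RNA comparisons a fit to its 6 units. On simulated counts the F test called somewhat more unchanged clusters than its threshold allows, so Simes' test and limma 3.58.1 values stand beside calls between mouse groups. Standard errors of log2 fold changes were derived from the F value, as the absolute change over its square root. IgG libraries enter no test, and they were identified by their titles, since their molecule label names hnRNPK-bound RNA. Wilson intervals cover counting error only, and estimated counts are not independent draws.

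Shares are of a cluster's counts and need 50 counts per unit where members are counted. Named clusters are those past the threshold with 50 or more counts in every unit of both sides and an isoform whose units do not overlap. They were ranked by the difference in mean share, at most 2 per comparison with the isoforms that gained and lost most. Lack of overlap in at least 1 isoform is thus part of how these clusters were chosen. Members and lists were chosen with earlier results of these data known. Gene lists and cell type markers could not be used without symbols. Alternatives were another scaling, filter, tool, unit, test, replicate block, share per length and count minimum, and leaving out each unit. DESeq2 1.42.0 was an alternative for levels.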

Additional observations from a re-analysis of the deposited data

Results flagged for a closer look

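Among 63 sets of 4 total RNA libraries (the named isoforms' shares and the members' share of counts, per mouse group), 8 had a single library outside the 95% limit of Dixon's ratio for 4 values. Chance gives this in about 1 in 20 sets, and 7 of the 8 are sets in which 3 libraries sit at the same bound, 0.0 or 100.0%, so any other value is flagged. In high-fat mice 1 library gave uc007wit.2 (cluster 9474) 9.03% where the other 3 gave 0.0%. Smaller departures from 0.0% were 2.04% for uc012gxp.1 (cluster 29617) and 0.163% for uc009nvr.1 (cluster 28186) in ob/ob, 0.482% for uc012dfv.1 (cluster 19063) in wild type and 0.324% for uc012dnm.2 (cluster 19956) in high-fat mice. Departures from 100.0% were 99.8% (99.799) for uc008wzf.1 (cluster 20683) in ob/ob and 99.7% (99.722) in high-fat mice. The remaining set was uc008hzs.2 (cluster 14285) in wild type, with 86.9% in 1 library and 89.4 to 89.6% in the others.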

How the results depend on the processing

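Counts of members called between IP and total RNA, in use and in level with both directions together, stayed within 1.5 times of their value under every alternative run, but those higher in nuclear IP were 15 with library size scaling against 23 as reported. Calls depended on the processing between the IPs and between mouse groups, and the cause was not tested. Replicate numbers did not meet the criterion for pairing, a correlation over 0.1 in every pair: deviations of same-numbered units correlated at 0.262 to 0.407 within ob/ob and wild type but at -0.121 to 0.094 within high-fat mice. With a replicate block, use was called in 11 members between nuclear and cytoplasmic IP (24 without), and in 0 and 0 in total RNA for ob/ob and high-fat against wild type, with 84 and 84 for IP against total RNA. In the order total RNA, cytoplasmic IP and nuclear IP, each for ob/ob then high-fat against wild type, counts that moved were as follows. Each library as its own replicate gave 8 (total ob/ob), 6 and 9, and 9 and 11. Limma voom gave 0 and 0 in total RNA and 1 and 3 in cytoplasmic IP. Isoforms with at least 5% of the cluster gave 0 (total high-fat), 1 and 1, and 2 and 1. Dropping the filter gave 1 and 2 in total RNA and 1 in nuclear IP of high-fat mice, library size scaling gave 2 (total high-fat), and Simes' test gave 1 (nuclear high-fat).

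Leaving out each unit gave 81 to 86 members in use for cytoplasmic IP, 81 to 85 for nuclear IP and 15 to 26 between the IPs, with 15 without the first wild-type unit of cytoplasmic IP. For ob/ob and high-fat it gave 0 to 3 and 0 to 3 in total RNA, 1 to 3 and 1 to 4 in cytoplasmic IP, and 0 to 4 and 0 to 4 in nuclear IP. Level calls were 71 to 76, 66 to 73 and 61 to 69. Switches were 20 to 22, 19 to 23 and 0 to 0 between fractions and, for ob/ob and high-fat, 5 to 10 and 4 to 8 in total RNA, 1 to 7 and 1 to 5 in cytoplasmic IP and 3 to 5 and 1 to 6 in nuclear IP. A group left with 1 unit cannot disagree with itself, which loosens the count. These ranges, and the 200-count minimum for the largest isoform's share, were chosen after seeing the data. A minimum of 200 counts gave 12 and 6 switches in cytoplasmic and nuclear IP against total RNA, 0 and 0 in cytoplasmic IP and 1 in nuclear IP of ob/ob mice, and largest-isoform shares of 44.0% in total RNA and 80.9% in nuclear IP. Shares of TPM gave 4 and 2 switches in nuclear IP and 89.7% in nuclear IP. The share difference of uc007til.1 (ob/ob against wild type, 3.27 points) ran from -0.66 points without the first wild-type unit to 7.21 points without the second. Isoforms under about 50 counts per unit are poorly measured, above all in cytoplasmic IgG.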
